A study of Rattus norvegicus with 16 samples.

Results

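Immediate early genes are switched on within minutes of a stimulus from factors already present in the cell. The 9 named for this account were Fos, Fosb, Jun, Junb, Jund, Egr1, Ier2, Ier3 and Atf3. They were chosen by gene symbol, and each of the 9 was found among the 13222 genes of the expression table. They encode subunits of the AP-1 transcription factor, a zinc finger factor, and small stress-response proteins.

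The study measured poly(A) RNA in sieved glomeruli of 16 male Wistar rats of about 175 g, killed on day 11, with 4 rats in each of 4 groups. Control rats were labelled healthy. PAN rats had an intravenous injection of puromycin aminonucleoside, a podocyte toxin that produces nephrotic syndrome in rats. The protocol lists a sham vehicle among the daily gavages, and the labels do not say which rats received it. The third group had PAN and daily pioglitazone, an agonist of the nuclear receptor PPAR gamma, and the fourth had PAN and daily GQ-16, an experimental ligand of the same receptor. No group had a drug without PAN, and the labels give no dose, litter, batch or pairing. Replicate numbers only name the rats of a group. That the libraries come from separate rats rests on the sample labels, so p-values measure the spread between these libraries.

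Fos and Jun proteins pair through leucine zippers to form AP-1, which binds DNA sites of the TGANTCA type. Growth factor, stretch and stress signals reach these genes through MAP kinases, serum response factor at CArG boxes, and CREB or ATF proteins at cyclic AMP response elements. Their transcripts are short-lived, and the signal is ended by phosphatases and Sprouty proteins that are themselves induced.

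RefSeq promoter sequence, on assembly GRCr8, was matched for 5 of the 9 genes (Fosb, Junb, Jund, Egr1 and Ier2). The 250 bases before the annotated start were searched on both strands for the CArG box (the site of serum response factor), TGACGTCA (the full cyclic AMP response element), its half-site TGACG, the AP-1 site TGANTCA, and the Egr1 site GCGNGGGCG. A full TGACGTCA holds a TGACG on each strand, so these matches overlap. Among 33469 promoters of the same length, 1.5% held a CArG box, 1.59% TGACGTCA, 18.2% TGACG, 6.34% TGANTCA and 4.29% GCGNGGGCG. Sequences are shown for 4 of these genes, whose matches differ, and for Nr4a1, the other early response gene with the smallest p in PAN rats. Capitals mark the matches, and a match is a description of the letters only.
Egr1 (chr18:26736828-26737077, plus strand): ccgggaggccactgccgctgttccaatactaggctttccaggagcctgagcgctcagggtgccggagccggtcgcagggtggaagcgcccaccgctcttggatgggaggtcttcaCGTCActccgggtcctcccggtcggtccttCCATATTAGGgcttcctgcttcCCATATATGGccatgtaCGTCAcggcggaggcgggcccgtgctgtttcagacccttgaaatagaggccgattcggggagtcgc
Ier2 (chr19:40399123-40399372, plus strand): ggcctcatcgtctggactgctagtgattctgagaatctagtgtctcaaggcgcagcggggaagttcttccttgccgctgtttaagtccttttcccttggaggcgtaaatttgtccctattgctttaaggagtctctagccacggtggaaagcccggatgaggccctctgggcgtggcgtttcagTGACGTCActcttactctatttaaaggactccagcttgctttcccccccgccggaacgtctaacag
Jund (chr16:18769772-18770021, minus strand): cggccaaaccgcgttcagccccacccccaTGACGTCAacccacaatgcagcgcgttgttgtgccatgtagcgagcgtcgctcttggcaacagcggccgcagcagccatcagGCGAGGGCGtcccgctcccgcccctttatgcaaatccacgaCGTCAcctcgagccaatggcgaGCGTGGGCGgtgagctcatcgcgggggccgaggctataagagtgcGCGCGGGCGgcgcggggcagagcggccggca
Junb (chr19:40080876-40081125, plus strand): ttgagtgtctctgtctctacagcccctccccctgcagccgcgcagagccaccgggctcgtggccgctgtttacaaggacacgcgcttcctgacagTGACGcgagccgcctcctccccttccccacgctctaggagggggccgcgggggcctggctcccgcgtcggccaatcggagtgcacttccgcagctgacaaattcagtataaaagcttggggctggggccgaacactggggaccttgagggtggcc
Nr4a1 (chr7:134259888-134260137, plus strand): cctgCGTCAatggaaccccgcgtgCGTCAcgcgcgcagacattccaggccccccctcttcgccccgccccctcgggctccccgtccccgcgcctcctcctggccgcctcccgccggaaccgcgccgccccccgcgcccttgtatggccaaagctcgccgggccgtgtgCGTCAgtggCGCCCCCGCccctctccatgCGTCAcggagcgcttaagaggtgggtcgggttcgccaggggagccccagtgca
Egr1 held 2 CArG boxes, beginning at -105 and -83 from the start, with a TGACG at -135 and another at -66. Ier2 held TGACGTCA at -66. Jund held TGACGTCA at -221, a TGACG at -98 and GCGNGGGCG at -139, -76 and -31. Junb held a single TGACG at -155, and Nr4a1 held 4 TGACG matches and a GCGNGGGCG at -73. The Fosb window, not shown, held no match to any of the 5 motifs.

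Library totals ran from 13351137 to 21977663 reads, and the 9 genes had between 77 and 4459 reads in any rat. Values below are counts per 1000000 reads in the listed genes (CPM). Reads of 13 mitochondrial genes took 25.9 ± 11.7% of the control libraries (SD, n = 4), with 13.7, 39.0, 32.1 and 18.9% in rats 1 to 4, and 9.07 ± 2.19% of the PAN libraries (5.83 to 10.6%). The share ran from 8.61 to 19.0% in the pioglitazone libraries and from 6.63 to 30.9% in the GQ-16 libraries, where rat 2 was highest. The exact two-sided permutation p for PAN against control was 0.0286, the smallest that 70 assignments of 8 rats can give. Because a large mitochondrial share lowers the CPM of every other gene, values were also scaled by the median ratio, in which the typical gene is held level between libraries. Summed podocyte markers were 2798 to 9856 CPM in control rats, with rats 2 and 3 lowest, and 7711 to 11295 CPM in PAN rats. The podocyte gene Nphs1 averaged 936 CPM in control rats, while none of 9 skeletal and cardiac muscle markers was among the listed genes. Tubule markers summed to 3173 to 9912 CPM in PAN rats and 5188 to 9125 CPM in control rats. In bulk RNA, fewer cells of a type and less RNA per cell cannot be told apart.

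PAN against control asks which of the 9 genes differed on day 11. Ier3, Atf3 and Junb were higher in PAN rats, by 0.79, 0.73 and 0.64 on the log2(CPM + 1) scale. The other 6 did not pass an adjusted p of 0.05 (limma, two-sided, Benjamini-Hochberg over 13222 genes). The 3 of 9 called compare with 22.3% of all genes called in the same fit, and 21.7% called higher. The median log2 change was 0.56 over the 9 genes and 0.28 over all genes. At an unadjusted p under 0.05 there were 5 of the 9, against 42.1% of all genes. These shares are to be read with the scaling, since the change of the typical gene was itself above 0 as deposited and -0.003 after median-ratio scaling.

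**Figure D1:**
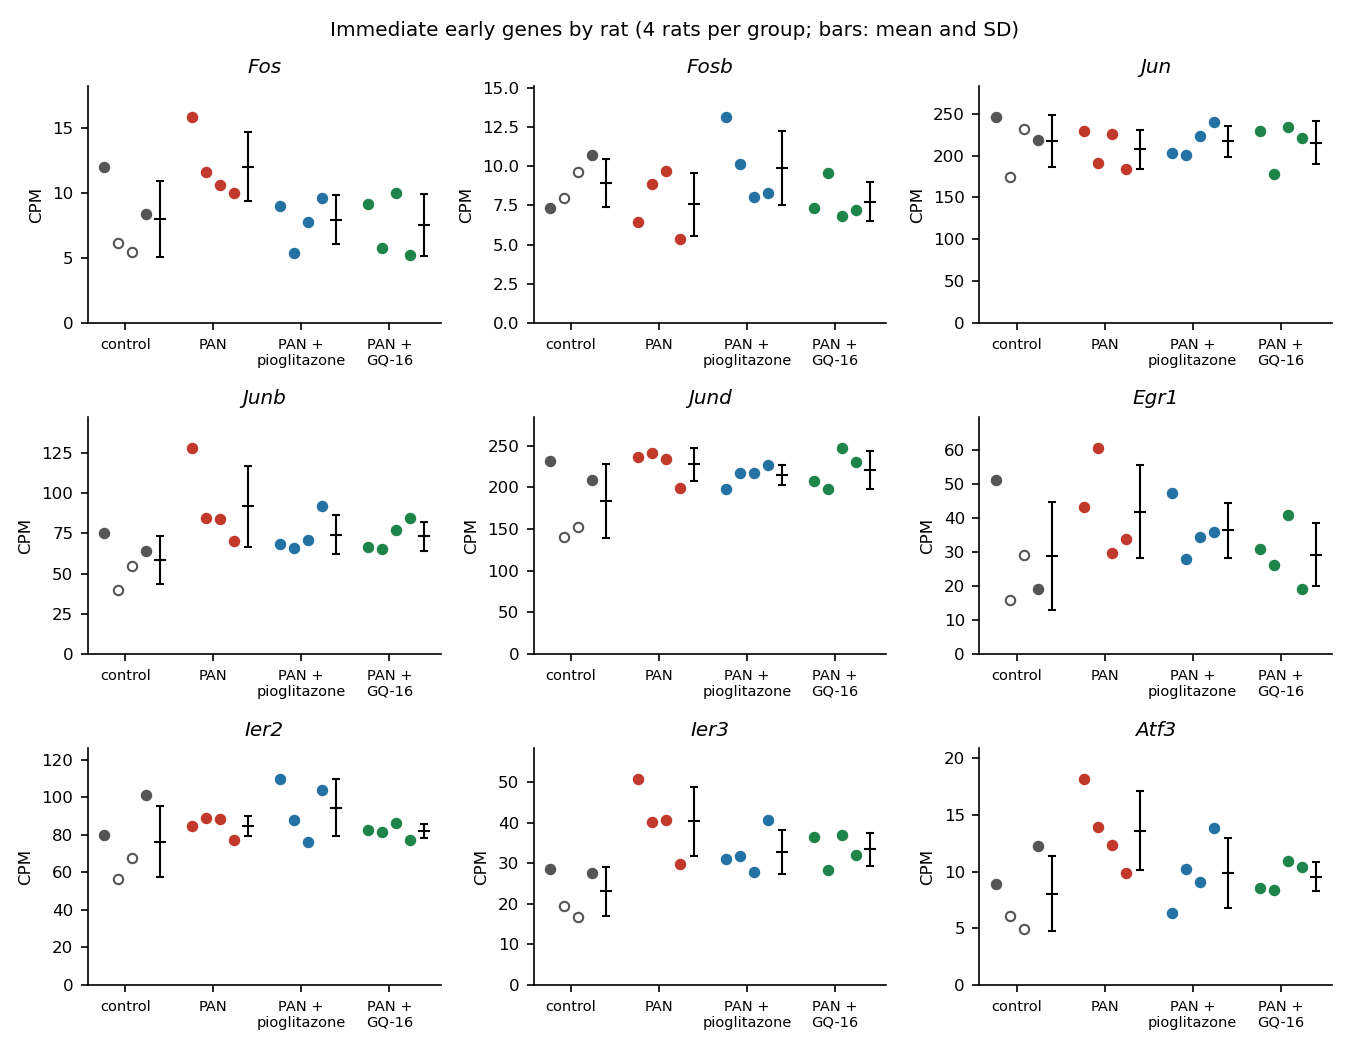
Each panel shows 1 gene, with CPM on the vertical axis from 0 and a point for each of the 16 rats by group; bars give the mean and SD of 4 rats, and open points are control rats 2 and 3, which had the highest mitochondrial shares of the 16. Only Ier3 separates all 4 PAN rats (29.8 to 50.8 CPM) from all 4 control rats (16.7 to 28.7 CPM).

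Fos (ENSRNOG00000008015) encodes the AP-1 subunit whose induction defines the class. Its level in control rats 1 to 4 was 12.0, 6.19, 5.47 and 8.4 CPM. In PAN rats 1 to 4 it was 15.9, 11.6, 10.6 and 9.99 CPM. PAN rat 1 was the highest of the 16, but control rat 1 stood above 3 of the 4 PAN rats, so the groups overlapped. The difference was 0.56 ± 0.245 (SE) on the log2 scale, with an adjusted p of 0.0951 by limma. Fosb (ENSRNOG00000046667), a close relative of Fos with the same zipper partners, read 7.35, 7.94, 9.64 and 10.7 CPM in control rats. In PAN rats it read 6.43, 8.85, 9.66 and 5.37 CPM. The lowest values of the 16 rats for Fosb were in PAN rats 4 and 1, and the 2 groups overlapped. Its log2 difference of -0.23 did not pass (adjusted p 0.361, limma).

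Jun (ENSRNOG00000026293) encodes the main activating partner of Fos. It measured 246, 174, 231 and 218 CPM in control rats and 230, 191, 225 and 184 CPM in PAN rats, and the groups overlapped almost fully. The log2 difference was -0.06, with a 95% interval of -0.35 to 0.22 (adjusted p 0.731, limma). Jund (ENSRNOG00000019568), the family member usually made at a steady level, measured 232, 140, 152 and 209 CPM in control rats. In PAN rats Jund measured 236, 241, 234 and 199 CPM. Control rats 2 and 3 were the lowest 2 of all 16 for Jund, whereas control rats 1 and 4 lay within the PAN range. Its log2 difference of 0.34 had an adjusted p of 0.103 by limma.

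Junb (ENSRNOG00000042838) encodes an AP-1 subunit that activates more weakly than Jun at many sites. Control rats gave 75.3, 39.7, 54.4 and 64.3 CPM. PAN rats gave 128, 84.6, 84.2 and 70.2 CPM. The first PAN rat was far above the rest, and only PAN rat 4 lay inside the control range. The means were 58.4 ± 15.1 and 91.8 ± 25.2 CPM (SD, n = 4 each). Junb rose by 0.64 ± 0.199 (SE) on the log2 scale, with an adjusted p of 0.0330 by limma. That call was lost without control rat 2 or 3, or without PAN rat 1, 2 or 3, with adjusted p-values up to 0.129, and PAN rat 1 also had the highest sum of leukocyte markers.

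Egr1 (ENSRNOG00000019422) encodes the zinc finger factor that binds GCGNGGGCG and is the classic target of serum response factor. It varied most between rats of all 9 genes, with 51.2, 15.9, 29.1 and 19.0 CPM in control rats. PAN rats had 43.2, 60.7, 29.8 and 33.9 CPM. Control rat 1 exceeded all PAN rats except the second, so the 2 groups overlapped widely. The log2 difference was 0.62 with a 95% interval of -0.05 to 1.29 (adjusted p 0.147, limma).

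Ier3 (ENSRNOG00000000827), a stress-inducible protein that modulates cell survival and ERK signalling, separated the groups most clearly. Its level was 28.7, 19.4, 16.7 and 27.6 CPM in control rats. In PAN rats it was 50.8, 40.1, 40.5 and 29.8 CPM. Every PAN rat was above every control rat, as deposited, a pattern shown in that direction by 22.4% of all genes. The means were 23.1 ± 5.96 and 40.3 ± 8.55 CPM. Ier3 rose by 0.79 ± 0.187 (SE) on the log2 scale (adjusted p 0.0110, limma). Ier2 (ENSRNOG00000054344), a nuclear regulator of transcription, measured 79.9, 56.7, 67.9 and 101 CPM in control rats. PAN rats measured 84.5, 88.8, 88.2 and 77.4 CPM for Ier2. PAN rats lay close together inside the wide control range. The log2 difference for Ier2 was 0.18 (adjusted p 0.378, limma).

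Atf3 (ENSRNOG00000003745) encodes a stress-induced factor of the ATF family that also pairs with Jun proteins. Control rats had 8.94, 6.09, 4.90 and 12.3 CPM. PAN rats had 18.2, 14, 12.3 and 9.92 CPM. Control rat 4 was above PAN rat 4 and close to PAN rat 3, so the groups overlapped. The means were 8.06 ± 3.30 and 13.6 ± 3.48 CPM. Atf3 rose by 0.73 ± 0.251 (SE) on the log2 scale, just inside the threshold (adjusted p 0.0475, limma). The call for Atf3 was lost under the same 5 omissions as that for Junb, with adjusted p-values up to 0.168.

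Control rats 2 and 3, with the highest mitochondrial shares of their group, supplied most of the low values. Control rat 2 was the lowest of 16 for 5 of the 9 genes and among the lowest 2 for 7. Control rat 3 was the lowest for 2 genes and among the lowest 2 for 5. PAN rat 1, with the smallest mitochondrial share of all (5.83%), was the highest for 4. With median-ratio scaling, 8.63% of all genes were called in PAN against control, and 2 of the 9 were among them (7.12% of all genes higher and 1.51% lower). Ier3 was still higher in PAN rats, by 0.50 (adjusted p 0.0322, limma), at 36.5 ± 6.41 against 25.4 ± 3.49 scaled CPM, again without overlap, as for 10.6% of all genes. Jun was lower, at -0.36 on the log2 scale (adjusted p 0.0193, limma). Scaled Jun was 239, 234, 283 and 219 in control rats. In PAN rats scaled Jun was 198, 176, 207 and 174. No PAN rat reached the lowest control rat, a separation in that direction shown by 5.23% of all genes. Atf3 (0.46, adjusted p 0.156) and Junb (0.35, adjusted p 0.128) stayed positive and did not pass (limma), and Ier2 turned from 0.18 to -0.12. Ier3 and Jun were likewise the 2 called with mitochondrial genes left out of the library total (8.25% of all genes called) and with quantile normalization (8.59%).

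**Figure D2:**
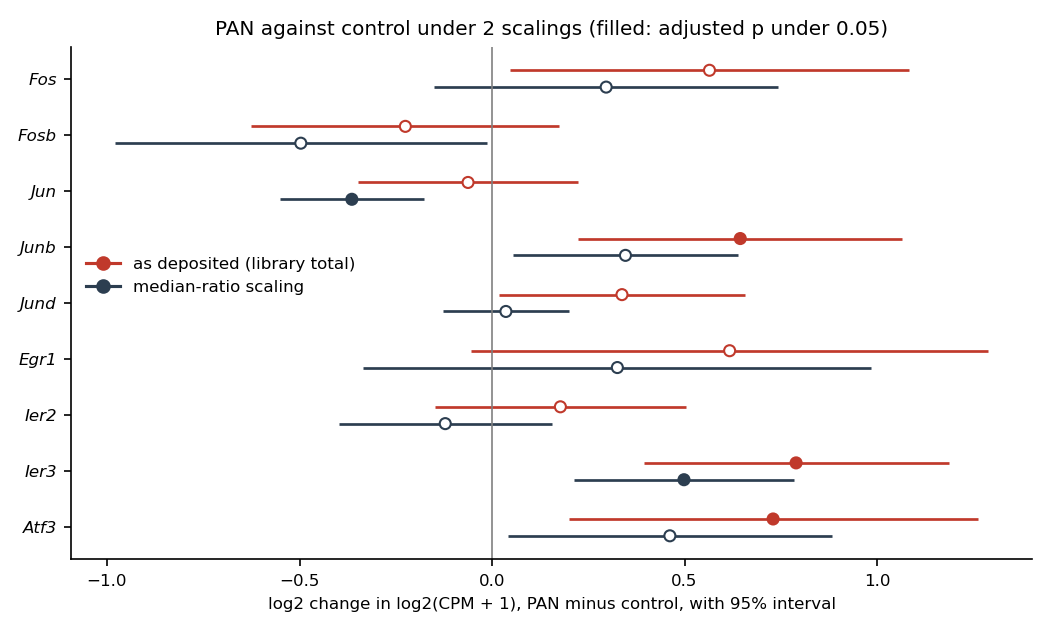
The horizontal axis is the difference in log2(CPM + 1), PAN minus control, with 95% intervals from limma for the 9 genes; red is the library total as deposited, dark blue is median-ratio scaling, and filled points have an adjusted p under 0.05. All 9 genes move to lower values with median-ratio scaling, Ier3 stays called higher, and Jun becomes called lower.

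**Figure D3:**
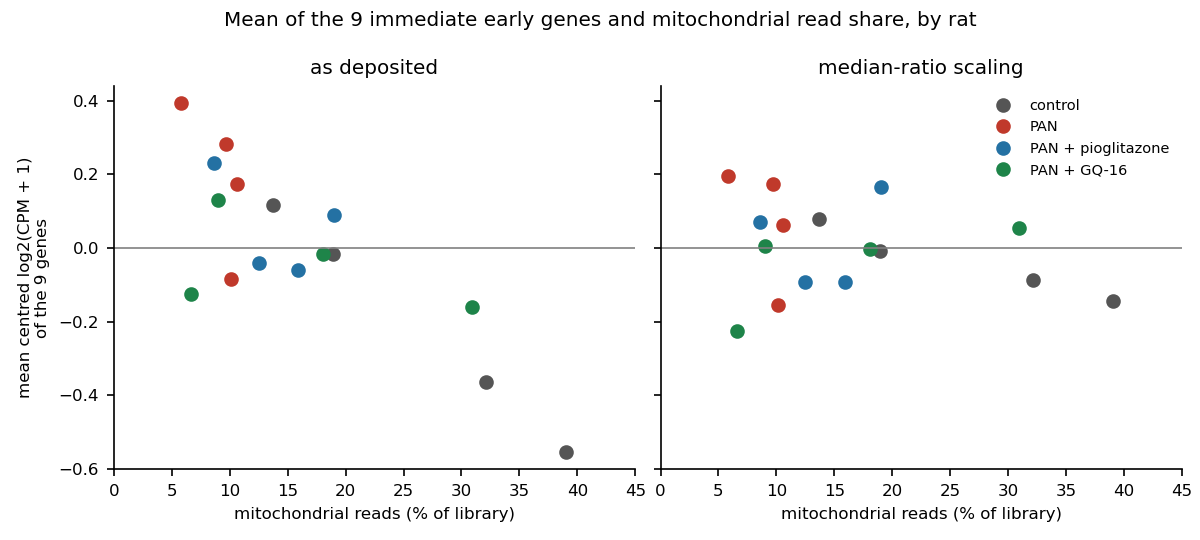
Each point is a rat, with the mitochondrial share of its reads in percent on the horizontal axis and the mean of the 9 genes on the vertical axis (log2(CPM + 1), each gene centred on its mean over 16 rats). As deposited, control rats 2 and 3 stand lowest at -0.55 and -0.37, and with median-ratio scaling the control rats lie between -0.14 and 0.08.

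The call for Ier3 also depended on which libraries were compared. The numbers in the library titles were 25 or more for PAN rats 1 to 3 and 1 rat of each drug group, and 15 or less for all others, with no control library in the high range. The labels do not say what the numbers stand for. With that split as a covariate, 2.97% of all genes and 0 of the 9 were called (limma; 1 of the 9 and 16.8% of all genes had an unadjusted p under 0.05), with Ier3 at 0.57 (adjusted p 0.197). With median-ratio scaling and that covariate together, also chosen after seeing the data, 2.87% of all genes and 0 of the 9 were called (limma; 2 of the 9 and 14.8% of all genes had an unadjusted p under 0.05), with Ier3 at 0.37 (adjusted p 0.287). Without control rats 2 and 3, a further choice made after seeing the data, 0.961% of all genes and again 0 of the 9 were called (limma; 1 and 11.8% of all genes had an unadjusted p under 0.05). Ier3 was then 0.48 higher (adjusted p 0.327). Leaving out control rat 3 alone gave Ier3 a difference of 0.65 with an adjusted p of 0.0506, and with any other single rat of the 2 groups left out it stayed called, at 0.67 to 0.92. The part of the mitochondrial share and of the library number in these differences was not tested.

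Other genes that respond as early as these were counted in lists chosen by function, with earlier results of these data known. Of 33 other early response genes in the table, 11 were higher in PAN rats and 0 lower as deposited, and 9 were higher with median-ratio scaling. After adjustment for library number 4 were higher and 1 lower, with that adjustment and median-ratio scaling 2 higher and 1 lower, and without control rats 2 and 3 there was 1 higher (limma; 10 at an unadjusted p under 0.05). Over all genes 21.7% were called higher as deposited and 7.12% with median-ratio scaling. The median log2 change of the 33 was 0.41 as deposited and 0.12 with median-ratio scaling, beside 0.28 and -0.003 over all genes. Nr4a1 (ENSRNOG00000007607), an orphan nuclear receptor, read 49.1, 49.7, 43.4 and 47.8 CPM in control rats. PAN rats read 100, 86.5, 111 and 103 CPM for Nr4a1. The control values were tight and every PAN rat was well above them. A separation in that direction was shown by 22.4% of all genes as deposited. Nr4a1 rose by 1.06 ± 0.149 (SE; adjusted p 0.000665, limma), by 0.76 with median-ratio scaling (adjusted p 0.00573), and stayed called with the library-number covariate (adjusted p 0.00519) and without control rats 2 and 3 (adjusted p 0.0351). Ptgs2, the inducible prostaglandin synthase, rose by 1.21 from 6.87 ± 1.83 to 17.3 ± 4.67 CPM. Plk3, a stress-responsive kinase, rose by 0.88 from 10.2 ± 2.40 to 19.4 ± 3.09 CPM. Ccn1, a secreted matricellular protein and a target of serum response factor, rose by 1.56 from 36.9 ± 12.2 to 116 ± 61.9 CPM, with PAN rat 1 at 206.5 CPM. These 3 were called under both scalings and in the library-number fit, and were not called without control rats 2 and 3. With median-ratio scaling and library number together, Nr4a1 (adjusted p 0.0245) and Plk3 (0.00496) were called and Ptgs2 (0.0602) and Ccn1 (0.0856) were not (limma). The gene called lower with the library number was Plk2 (named after its values were seen), at -0.91, and -1.12 with median-ratio scaling too.

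Among AP-1 relatives, 2 of 10 rose with either scaling, where 21.7% of all genes were called higher as deposited and 7.12% with median-ratio scaling. The count as deposited was thus near that of genes at large. Jdp2, a repressor that pairs with Jun proteins, rose by 1.13 (adjusted p 0.00246, limma) and Mafk, a small Maf protein, by 0.63 (adjusted p 0.0135, limma). With the library-number covariate Jdp2 stayed called (adjusted p 0.0408) and Mafk did not (0.237), and without control rats 2 and 3 neither was called (0.106 and 0.356, limma). Of 15 feedback inhibitors, 4 rose as deposited and 2 with median-ratio scaling, beside the same shares of all genes. Dusp6, the phosphatase that inactivates ERK, read 72.4, 53.2, 59.3 and 68.1 CPM in control rats. In PAN rats Dusp6 read 131, 162, 131 and 103 CPM, all above every control rat, as for 22.4% of all genes as deposited. Dusp6 rose by 1.04 ± 0.147 (SE; adjusted p 0.000668, limma) and, like Nr4a1, kept its call with median-ratio scaling (0.74), after adjustment for library number (adjusted p 0.00801) and without control rats 2 and 3 (adjusted p 0.0373). The Sprouty genes Spry1 (0.81) and Spry2 (0.48) and the phosphatase Dusp4 (0.80) also rose as deposited, and of these Spry1 alone was called with median-ratio scaling. None of these 3 was called with the library-number covariate (adjusted p 0.0543 for Spry1, 0.401 for Spry2 and 0.311 for Dusp4) or without control rats 2 and 3 (0.108, 0.607 and 0.409, limma). Dusp1 and Zfp36 stand in both the early response and the feedback list, and neither was called.

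Genes of the signalling inputs to the early genes were counted in the same way. Of 18 MAP kinase cascade and serum response factor genes, 4 rose as deposited (Crem 0.39, Mrtfa 0.48, Map2k1 0.68 and Srf 0.61), a share near the 21.7% of all genes called higher. The list median was 0.20, below the 0.28 of all genes. With median-ratio scaling 0 were called, the median turned to -0.098 and 5 of the 18 were above 0. At an unadjusted p under 0.05 there were then 5 of the 18 (limma), near the 26.6% of all genes, of which Map2k1 and Srf were above 0 and the other 3 below. After adjustment for library number 13 of the 18 were above 0 (median 0.15) and 0 were called (1 at an unadjusted p under 0.05, limma). With both changes 6 were above 0 (median -0.045), and Map2k7 (named after its values were seen) was called lower, at -0.33 (adjusted p 0.0251, limma). Of 9 partners of Atf3 in the Atf4 stress pathway, 5 rose as deposited and 2 with median-ratio scaling, beside 21.7% and 7.12% of all genes. Cebpb (0.99) and Atf5 (1.16), both bZIP factors, were called with either scaling. They were not called with the library-number covariate (adjusted p 0.194 and 0.309) or without control rats 2 and 3 (0.429 and 0.538, limma). Atf4 itself (0.55), the eIF2 phosphatase subunit Ppp1r15a (0.50) and Ddit4 (0.43), a stress-induced brake on mTOR, were called as deposited and not with median-ratio scaling. Ddit4 was the 1 of the 9 called with the library-number covariate (0.70, adjusted p 0.00801), and 0 of the 9 were called without control rats 2 and 3 (limma; 2 at an unadjusted p under 0.05). Of 10 heat shock genes, 2 were called higher as deposited, again near the share of all genes, and 0 with median-ratio scaling (1 at an unadjusted p under 0.05, limma). The heat shock median turned from 0.21 to -0.096, with 2 of 10 above 0. After adjustment for library number it was 0.36, with 10 of 10 above 0 and 0 called (5 at an unadjusted p under 0.05, limma), and with both changes 0.15, with 9 of 10 above 0. Hspa1b rose by 1.36, but reads of its near-identical copy Hspa1a may be divided or lost between them, so its value is uncertain. Hsp90aa1, a cytosolic chaperone, rose by 0.44. As deposited, Nr4a1, Ptgs2, Plk3, Ccn1, Jdp2, Dusp6 and Spry1 kept their calls with any single rat left out. For Ddit4 the fits with single rats left out were not examined. The other list genes named above lost their calls without control rat 2 and without control rat 3, with adjusted p-values up to 0.176 (Srf, limma). All of these but Mafk and Cebpb also lost their calls without at least 1 PAN rat. Markers of other cells moved in the same comparison: mesangial and smooth muscle markers summed to 294 to 800 CPM in control rats and 1618 to 2705 CPM in PAN rats, with 7 of 8 called, and leukocyte markers to 263 to 400 and 378 to 1107 CPM, with 6 of 11 called. With median-ratio scaling 6 of the 8 and 0 of the 11 were called (6 of the 11 at an unadjusted p under 0.05, limma), and with the library-number covariate 4 and 0 (3 of the 11 at an unadjusted p under 0.05, limma). Podocyte markers had a median log2 change of 1.39, with 2 of 10 called higher as deposited and 1 with median-ratio scaling. Of 14 tubule markers 3 were called lower as deposited and 2 with median-ratio scaling. Their part in the changes of the early genes was not tested.

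**Figure D4:**
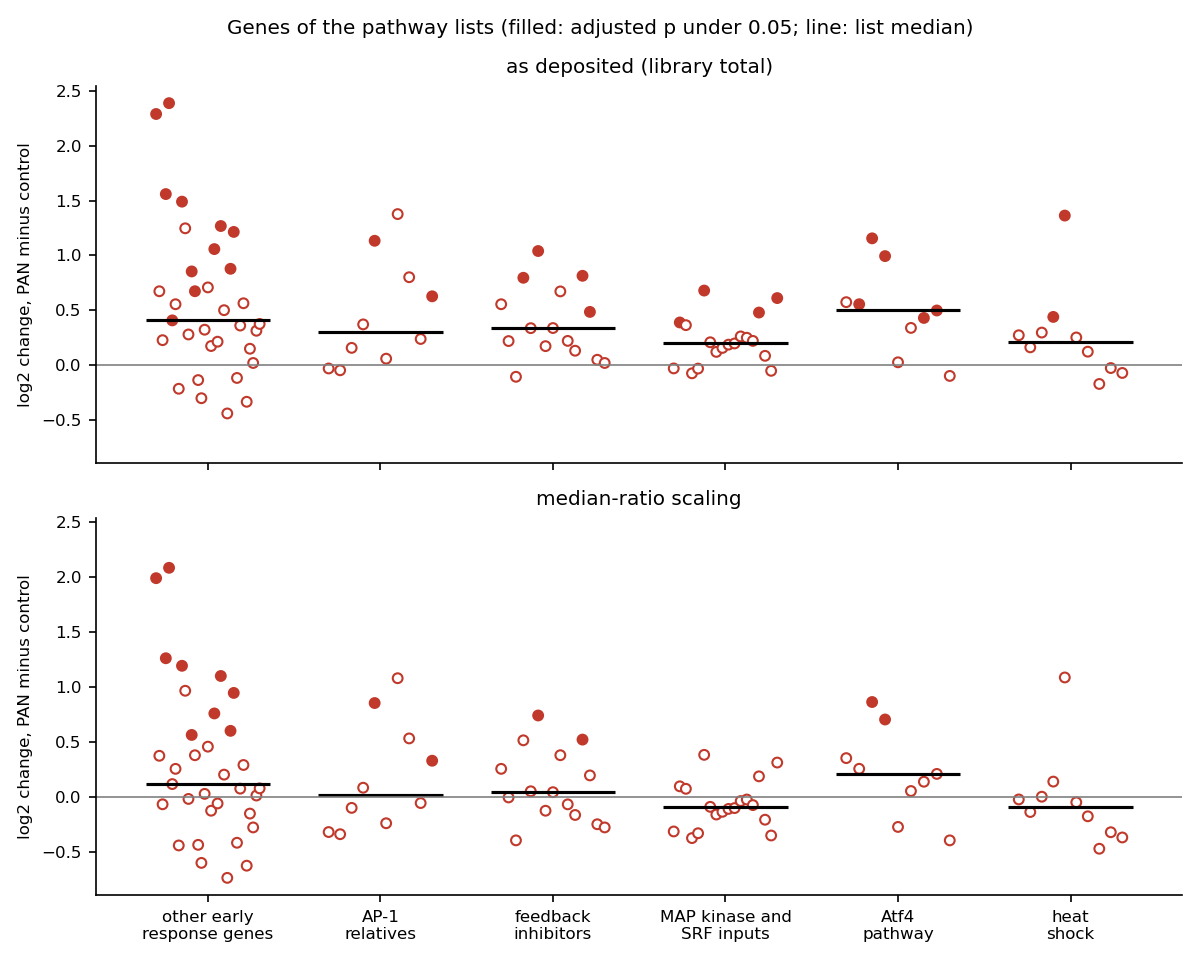
Each point is a gene of a list, with its log2 change (PAN minus control, log2(CPM + 1)) on the vertical axis, as deposited above and with median-ratio scaling below; filled points have an adjusted p under 0.05 by limma and lines give list medians. All filled points lie above 0, and the MAP kinase and heat shock lists have none with median-ratio scaling.

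The 2 drug groups were each compared with PAN to ask whether treatment changed the level of these genes. None of the 9 was called for pioglitazone, where 0% of all genes were called (limma, smallest adjusted p 0.678; 3.74% of genes and 1 of the 9 had an unadjusted p under 0.05). None was called for GQ-16, where 0.0151% of all genes were called, namely Cdkn1a and Prune2, which lie outside the gene lists and are named after their values were seen (8.27% of genes and 1 of the 9 had an unadjusted p under 0.05). Both comparisons use the same 4 PAN rats, so their values are given side by side and are not independent.

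Fos had the lowest unadjusted p of the 9 in both comparisons. In the pioglitazone group Fos was 9.03, 5.35, 7.80 and 9.60 CPM, and in the GQ-16 group 9.16, 5.80, 9.99 and 5.21 CPM, against 9.99 to 15.9 CPM in PAN rats. All 4 pioglitazone rats were below all 4 PAN rats as deposited, a separation in that direction shown by 2.36% of all genes, and 1 overlapped with median-ratio scaling. The GQ-16 rats just touched the PAN range as deposited and lay below it with median-ratio scaling, as 1.85% of all genes did. The log2 difference was -0.55 with pioglitazone (95% interval -1.07 to -0.03, adjusted p 0.916, limma) and -0.63 with GQ-16 (-1.15 to -0.11, adjusted p 0.512, limma). Mean Fos in the pioglitazone and GQ-16 groups, 7.95 ± 1.89 and 7.54 ± 2.38 CPM, stood beside 8.01 ± 2.93 CPM in control rats.

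The 3 genes called in PAN rats were at lower means in both drug groups without passing the test. They were picked by their level in the same 4 PAN rats, so these lower means cannot be read apart from that choice. The median log2 change from PAN over all genes was itself -0.093 with pioglitazone and -0.114 with GQ-16 as deposited. With median-ratio scaling it was -0.015 and 0.006. Ier3 in the pioglitazone rats was 31.2, 31.8, 27.7 and 40.6 CPM. In the GQ-16 rats Ier3 was 36.6, 28.3, 36.9 and 32 CPM. These rats lay between and across the control and PAN ranges. The log2 differences from PAN were -0.28 and -0.25. Junb ranged over 65.7 to 92.0 CPM under pioglitazone and 65.6 to 84.2 CPM under GQ-16, at -0.28 and -0.29 from PAN. Atf3 ranged over 6.39 to 13.9 CPM and 8.43 to 10.9 CPM in that order, at -0.44 from PAN in each case. For all 3 the 95% intervals included 0.

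For the remaining 5 genes, too, the 95% intervals of both differences from PAN included 0. Egr1 averaged 36.4 ± 8.0 CPM under pioglitazone and 29.3 ± 9.18 CPM under GQ-16, at -0.17 and -0.50 from PAN. Fosb averaged 9.88 ± 2.36 and 7.72 ± 1.24 CPM, at 0.35 and 0.04. Jun averaged 217 ± 18.5 and 215 ± 25.6 CPM, at 0.07 and 0.05. Jund averaged 215 ± 12.0 and 221 ± 22.4 CPM, at -0.08 and -0.04. Ier2 averaged 94.5 ± 15.3 and 82.0 ± 3.61 CPM, at 0.14 and -0.05. In the pathway lists no gene was called against PAN for either drug. Ccn1 had the widest gap among the named ones, at 60.9 ± 8.89 and 58.0 ± 10.6 CPM for pioglitazone and GQ-16 against 116 ± 61.9 CPM in PAN rats (log2 differences -0.81 and -0.88, adjusted p 0.916 and 0.421, limma). Without PAN rat 1, which had 206.5 CPM, the differences for Ccn1 were -0.49 and -0.57. By unadjusted p Ccn1 was not first with GQ-16. Dusp6 (-0.59, adjusted p 0.317), Spry1 (-0.53, adjusted p 0.417) and Mrtfa (-0.49, adjusted p 0.418) came before it (limma). Cell type markers also differed from PAN without a call. Mesangial and smooth muscle markers had a median log2 change of -0.91 with pioglitazone (2 of 8 at an unadjusted p under 0.05, limma) and -0.95 with GQ-16 (5 of 8). Leukocyte markers stood at -0.34 (0 of 11) and -0.57 (7 of 11), and red blood cell markers at 0.70 (0 of 5) and 1.03 (4 of 5). Their part in the lower means of Fos, Ccn1, Dusp6, Spry1 and Mrtfa was not tested.

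**Figure D5:**
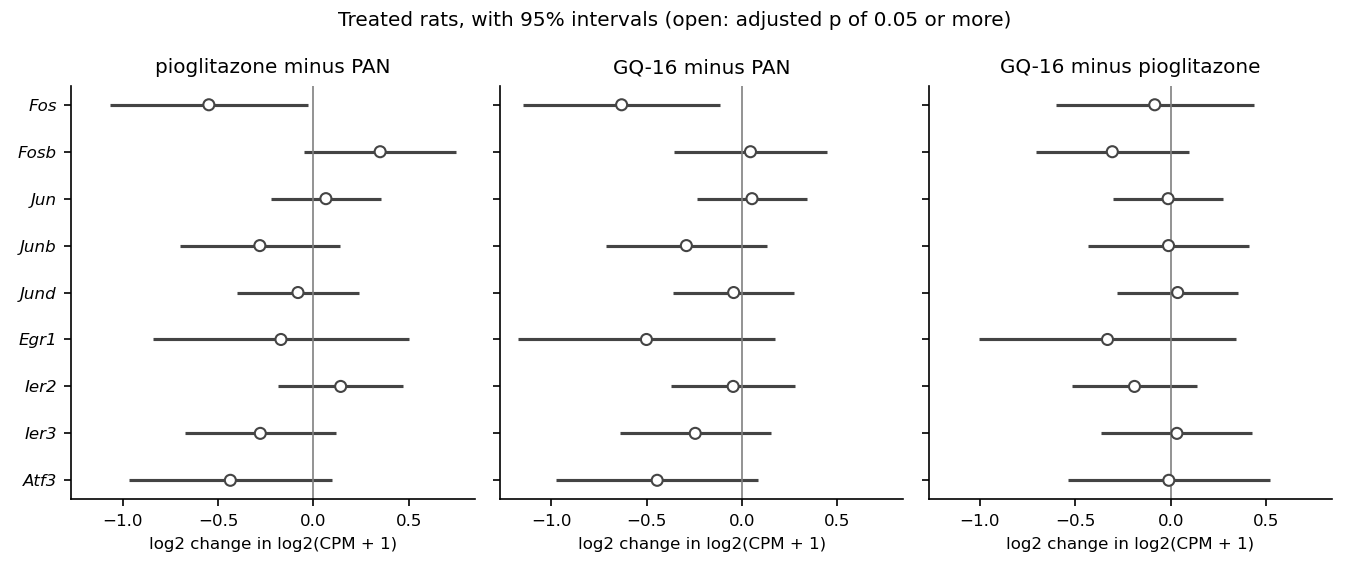
For each of the 9 genes the horizontal axis gives the difference in log2(CPM + 1) between 2 groups of 4 rats, with 95% intervals from limma. All points are open, that is, no gene passed an adjusted p of 0.05, and only the intervals for Fos against PAN, in the first and middle panels, lie wholly below 0.

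Between the 2 drugs, none of the 9 was called and 0% of all genes were (limma, smallest adjusted p 0.278; 5.94% of genes and 0 of the 9 had an unadjusted p under 0.05). The widest differences, GQ-16 minus pioglitazone, were -0.33 for Egr1 (95% interval -1.0 to 0.34), -0.31 for Fosb (-0.71 to 0.09) and -0.19 for Ier2 (-0.52 to 0.14). For the other 6 the estimate was within 0.1 of 0, with intervals reaching from -0.60 to 0.52 at the widest. These intervals do not show that the 2 compounds acted alike.

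Against control, none of the 9 was called in either drug group, where 4.98% of all genes were called for pioglitazone and 0.151% for GQ-16. Both share the 4 control rats with the PAN comparison. At an unadjusted p under 0.05 (28.5 and 23.9% of all genes) there was 1 of the 9 in each by limma, Ier3, at 0.51 with pioglitazone (adjusted p 0.107) and 0.54 with GQ-16 (adjusted p 0.124). With control rat 1 left out these became 0.62 and 0.66, with adjusted p-values of 0.0471 and 0.0413 (limma). Over all 13222 genes that omission gave 1660 calls for pioglitazone and 1572 for GQ-16, against 659 and 20 with all rats. With median-ratio scaling Ier3 in every GQ-16 rat was above every control rat, as for 6.26% of genes, and Jun in every pioglitazone rat was below every control rat, as for 4.67%, and neither was called. Of the lists, pioglitazone rats had higher Ptgs2 (1.24), Nr4a1 (0.71), Plk3 (0.67) and Csrnp1 (0.48), a nuclear factor induced by axin, among the 33 early response genes. They also had higher Dusp4 (1.09), Dusp6 (0.89), Spry1 (0.57), Jdp2 (0.81), Crem (0.44) and Hspa1b (1.51). With median-ratio scaling Ptgs2, Dusp4, Dusp6 and Jdp2 remained called. With the library-number covariate Jdp2 (adjusted p 0.0574), Spry1 (0.0775) and Hspa1b (0.0745) lost their calls, while Ddit4 (0.0133) and Hsp90aa1 (0.0471) gained one (limma). Without control rats 2 and 3 none of these 10 was called, with adjusted p-values from 0.27 (Dusp6) to 0.618 (Jdp2 and Spry1, limma). In the same comparison as deposited, 5 of 8 mesangial and smooth muscle markers were called higher (median log2 change 1.37) and 2 of 14 tubule markers lower (median -0.77). Their part in these differences was not tested. As deposited, only Ptgs2 and Dusp6 of these 10 kept their call with any single rat left out, and the others lost it at least without control rat 2 and without control rat 3. In GQ-16 rats Nr4a1 was the only listed gene called as deposited (0.90, adjusted p 0.0219, limma), and it was called with median-ratio scaling too (0.73, adjusted p 0.0395), as was Atf4 (0.38). Nr4a1 in GQ-16 rats lost its call without control rat 2, control rat 3 or GQ-16 rat 3, with adjusted p-values up to 0.107, and without control rats 2 and 3 together (0.466, limma). In GQ-16 against control no marker of these cells was called, while the median log2 change was 1.52 for podocyte markers (6 of 10 at an unadjusted p under 0.05, limma), 0.98 for mesangial and smooth muscle markers (6 of 8) and 1.36 for red blood cell markers (4 of 5). Their part in the difference of Nr4a1 was not tested.

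The 9 genes differed in how much they varied. Over the 16 rats the coefficient of variation was 35.9% for Egr1, 32.9% for Fos and 32.7% for Atf3, and 10.6% for Jun, 14.2% for Jund and 15.6% for Ier2. Within control rats alone Egr1 reached 55.5%. As a description over 16 rats, which share groups and library scaling, 29 of the 36 gene pairs had a positive Pearson correlation of log2(CPM + 1) as deposited, with a median of 0.48, and the highest were Ier3 with Junb (0.87) and Ier3 with Atf3 (0.86). With median-ratio scaling 20 of 36 were positive and the median was 0.09, and after group means were subtracted too, 29 of 36 were positive with a median of 0.20. Over all rats with that scaling Ier3 with Atf3 was 0.71, while the highest was Fosb with Ier2 (0.72).

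The genes most like the mean of the 9 over 16 rats were ranked among 10679 others with at least 5 CPM. As deposited the first 8 were Tcof1 (r = 0.97), Brpf1, Hnrnpl, Elavl1, Mesd, Ddhd2, Tdg and Raver1 (0.92). After group means were subtracted, Hnrnpl (0.96), Tcof1 (0.95) and Elavl1 (0.93) stood first, followed by Cnot8, and Brpf1 was no longer among the first 10. With median-ratio scaling Tcof1 stayed first (0.88), and the next were Cd38 (0.82), Limd2, Itgal, Nckap1l, Klhl6, RT1-Da, Cd74, Il17ra and Cx3cr1 (0.76). The last list holds several genes of leukocytes, among them the integrin chain Itgal and the antigen presentation genes RT1-Da and Cd74. No test attaches to these rankings.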

How the data were processed

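Poly(A) RNA of glomeruli from 16 rats was sequenced as stranded pairs, per the labels' protocols. The submitters' processing notes name HISAT2, featureCounts, Subread and limma and the build Rnor_6.0, with no role or version. The deposited table holds log2 CPM for 13222 genes, each with at least 2 CPM in 8 or more rats. The deposited log2 values carry an offset of 0.5 on counts and 1 on totals, and whole reads were recovered for 100% of values (tolerance 0.05).

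CPM was taken back from the log2 values, and log2(CPM + 1) was fitted in limma 3.58.1 (R 4.3.3) with 4 group means, a variance trend and Benjamini-Hochberg adjustment over all genes. The filter of a mean of 1 CPM removed no gene. The design named a count test for raw counts. The table holds log2 values, so its limma branch was used. The fit was tested on simulated data. No pair of libraries in a group agreed within sampling noise (chi-square per gene 13.3 to 297). All 16 columns were matched to samples by title.

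The 9 genes and the lists were chosen with earlier results of these data known. Named genes were the 9, and of each list in each comparison at most 4 called genes with the smallest p, or 2 where none was called. Ddit4, Hsp90aa1 (with pioglitazone), Map2k7, Plk2, Cdkn1a and Prune2 were named after their values were seen. Results that need genes withheld from the text are not reported here. Alternatives were 3 other scalings (median ratio, total without mitochondrial genes, quantile), pseudocount 0.1, a mean of at least 10 CPM, only the groups compared, a library-number or tubule covariate, voom on recovered reads, and each rat left out. Intervals cover the spread between rats. Promoters were read from the RefSeq table on GRCr8, and the bases after the start were not searched.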

Additional observations from a re-analysis of the deposited data

How the results depend on the processing

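No paired analysis was possible because the labels give no replicate numbers, and the numbers used here follow accession order. The count of the 9 genes called in PAN against control was 3 as deposited and 2 (Ier3 higher, Jun lower) under the 3 other scalings. It was 1 with only the groups compared and 1 with the tubule covariate. It was 0 with the library-number covariate, 0 with that covariate and median-ratio scaling, and 0 without control rats 2 and 3. With single rats left out it ran from 0 to 6. Leaving out control rat 1 gave 6, adding Egr1, Fos and Jund, and leaving out control rat 3 gave 0. Over all 13222 genes these 2 omissions gave 4964 and 838 calls, against 2943 with all rats. Leaving out control rat 2, PAN rat 1, PAN rat 2 or PAN rat 3 left Ier3 alone, with 860, 1049, 1317 and 1958 calls over all genes in that order. In the drug comparisons with control the count of the 9 genes called ran from 0 to 1. That count was 0 in all fits of the 3 comparisons without control rats.

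Over all genes, PAN against control gave 2943 calls, of which 2874 were higher and 69 lower. Median-ratio scaling gave 1141 (942 higher, 199 lower), the total without mitochondrial genes 1090, quantile normalization 1136, the library-number covariate 393 and 379 with median-ratio scaling, only the groups compared 1580, and the omission of control rats 2 and 3 127. Omission of single rats gave 838 to 4964. Pioglitazone against control gave 659, and 357, 376 and 384 under the 3 scalings in the order mitochondrial total, median ratio and quantile, 393 with a mean of at least 10 CPM, 399 with median ratio and library number, 37 with the tubule covariate, 1 without control rats 2 and 3, and 48 to 1660 with single rats omitted. GQ-16 against control gave 20, and 72, 98 and 67 under the same scalings, 33 and 83 with the library number (alone and with median ratio), 6 with voom, 0 without control rats 2 and 3, and 0 to 1572 with single rats omitted. GQ-16 against PAN gave 2, then 7 with the tubule covariate, 1 with a mean of at least 10 CPM, 0 under the scalings, the library-number fits and the fit to the groups compared, and 0 to 9 with single rats omitted. Pioglitazone against PAN gave 0 to 1 with single rats omitted. The cause of these shifts was not tested.

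Signs of the 9 genes turned as follows in PAN against control and in the drug comparisons with PAN. Ier2 in PAN against control was -0.12 (median ratio), -0.13 (mitochondrial total), -0.11 (quantile), -0.094 (median ratio and library number) and -0.086 (without control rats 2 and 3). Ier2 in GQ-16 against PAN was 0.079, 0.079, 0.082 and 0.061 under the first 4 of these. Jund in GQ-16 against PAN was 0.083, 0.082, 0.088 and 0.095 under the same 4, and 0.031 with the library number. Jund in pioglitazone against PAN was 0.0022 (median ratio), 0.00059 (mitochondrial total) and 0.015 (median ratio and library number). With single rats omitted, Jun in PAN against control ran from -0.17 to 0.00087, Egr1 in pioglitazone against PAN from -0.31 to 0.022, and in GQ-16 against PAN Jund ran from -0.11 to 0.0067, Jun from -0.0033 to 0.14 and Fosb from -0.088 to 0.16. In the other comparisons, differences above 0 went with median-ratio scaling from 9 to 6 of the 9 genes (pioglitazone against control), from 6 to 4 (GQ-16 against control) and from 2 to 5 (GQ-16 against pioglitazone). Without control rats 2 and 3 they numbered 5 and 2 in the 2 comparisons with control.

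Fos and Fosb have means under 10 CPM and no value under that filter. No library of a group of 4 stood apart by Dixon's criterion in 60 groups examined, where chance gives about 3. The joint library-number and scaling fit and the omission of control rats 2 and 3 were chosen after seeing the data.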
